A study of Rattus norvegicus with 8 samples.

Results

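The miRNAs miR-208 (the form now named miR-208a-3p), miR-208b-3p and miR-499 (now miR-499-5p) are 3 of the 677 rat miRNAs on the array, and every probe listed under those names was used. They were measured in total RNA of isolated rat cardiomyocytes on 8 single-colour Cy3 microarrays, 4 of postnatal day 0 (P0) and 4 of postnatal day 10 (P10). The cells of both ages came from animals of either sex, with no treatment or transgene in the labels, and the strain, the number of animals and any pooling are not given in the sources used here. The sample labels name the younger age P0, whereas the title and design text of the series name it day 1. The labels do not say that the 4 arrays of an age came from separate animals or cultures, so the p-values measure the spread between these arrays, which may be technical.

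The 3 miRNAs lie inside myosin heavy chain genes and are made from the introns of their hosts' transcripts. miR-208 comes from Myh6, which encodes the fast alpha myosin heavy chain, miR-208b from Myh7, which encodes the slow beta chain, and miR-499 from Myh7b, a related myosin gene. In the rodent ventricle the beta chain is the main form before birth and the alpha chain replaces it in the weeks after birth. In mice, miR-208a is known to be needed for expression of Myh7 under stress and for that of Myh7b, and with them of miR-208b and miR-499. The comparison of the ages asks whether the miRNA of each host moved between P0 and P10 and whether the 3 moved together. No myosin mRNA was measured on these arrays.

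The mature sequences are shown because the 3 miRNAs share bases 2 to 7 of their seed, the stretch that pairs with target mRNAs. In addition, 2 of them are alike enough for the probes to matter. The sequences are from RefSeq (GRCr8), 5′ to 3′, with the seed (bases 2 to 8) in capitals.
rno-miR-208a-3p: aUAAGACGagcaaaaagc
rno-miR-208b-3p: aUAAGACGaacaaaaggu
rno-miR-499-5p: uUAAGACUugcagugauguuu
miR-208a-3p and miR-208b-3p have the same seed and the same base at 15 of 18 positions. Counted from the 5′ end, with the base of miR-208a-3p first, they differ by G10A, A16G and C18U. miR-499-5p differs from miR-208a-3p within the first 8 bases by A1U and G8U, so it shares bases 2 to 7 with both. Among 693 rat mature sequences in the RefSeq table, 0 others outside these hairpins had the seed of miR-208a-3p or of miR-499-5p, over bases 2 to 8 or 2 to 7.

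The probe standing for each miRNA, its brightest over all arrays, is complementary to the mature sequence from its 3′ end. In capitals are the probe bases that face the positions at which miR-208a-3p and miR-208b-3p differ.
rno-miR-208 probe: GcTttttgCtcgtctt
rno-miR-208b-3p probe: AcCttttgTtcgtcttat
rno-miR-499 probe: aaacatcactgcaagtctt
The miR-208 probe of 16 bases pairs with bases 3 to 18 and the miR-208b-3p probe of 18 bases with bases 1 to 18, so each covers all 3 differing positions. Per the scanner files, the miR-208 probe maps to chr15:33052009-33052023 and the miR-208b-3p probe to chr15:33078078-33078094 of the rat build rn4, 26055 bases apart. The miR-499 probe of 19 bases pairs with bases 3 to 21 and maps to chr3:146127966-146127983 of rn4. These spans are printed as the files give them, and each is 1 base shorter than its probe. In the RefSeq annotation of GRCr8 the hairpins Mir208a, Mir208b and Mir499a each lie within 1 protein-coding gene, Myh6, Myh7 and Myh7b. Binding of a probe to the other miRNA was not tested.

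Signals below are the scanner's processed intensity, a spot's brightness minus the local background, averaged over the unflagged spots of a probe, and values below 0 mean no signal over background. Detection required the scanner's well-above-background mark on 0.5 or more of the probe's spots. Levels are the signal as a percentage of a reference for each array, the 75th percentile of the 111 probes that every array detected. For tests on the log2 scale, levels under 1.69% were set to that floor, at which they have no order. miR-208 and miR-499 entered the fit because an age existed in which each of its 4 arrays detected them, and miR-208b-3p did not enter it.

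The arrays were not equally sensitive. The 75th percentile was 116 intensity units on P0 replicate 1 and 580 to 1326 on the other 7 arrays, and 73 miRNAs were detected on that array against 156 to 187. Its dimmest detected probe stood at -2.84 on the log2 scale relative to the 75th percentile, against -6.61 to -5.48 elsewhere, so P0 replicate 1 could not have shown a level as low as those of miR-208 or miR-208b-3p on any other array. Within P10, replicates 1 and 2 correlated across miRNAs at r = 0.998 and replicates 3 and 4 at r = 0.997, against 0.889 to 0.898 between these pairs. Log2 levels of the 70 miRNAs detected on all 8 arrays differed within those pairs with an SD of 0.089 and 0.189. The pairs are therefore also given separately and averaged to 1 value each. All 8 arrays were on 1 slide in 1 scan, the P0 arrays in row 1 and the P10 arrays in row 2, so age and slide row cannot be told apart. No miRNA spot was saturated.

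miR-208, the alpha-myosin miRNA, was higher at P10. Its signal was -6.01, 15.4, 3.83 and 12.3 intensity units on P0 replicates 1 to 4, and 19.8, 16.2, 58.6 and 62.6 on P10 replicates 1 to 4. The probe was brightest on P10 replicates 3 and 4, and the lowest P10 signal lay just above the highest P0 signal. Spots of 1 array varied with an SD of 1.26 to 3.93 units. Of the spots, 0 of 10, 7 of 10, 0 of 8 and 0 of 10 were well above background at P0, and 8 of 9, 8 of 9, 10 of 10 and 10 of 10 at P10. The miRNA was thus detected on 1 of 4 P0 arrays and on 4 of 4 P10 arrays. In these bulk samples, a change in the share of cardiomyocytes and a change in RNA per cell cannot be told apart.

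**Figure D1:**
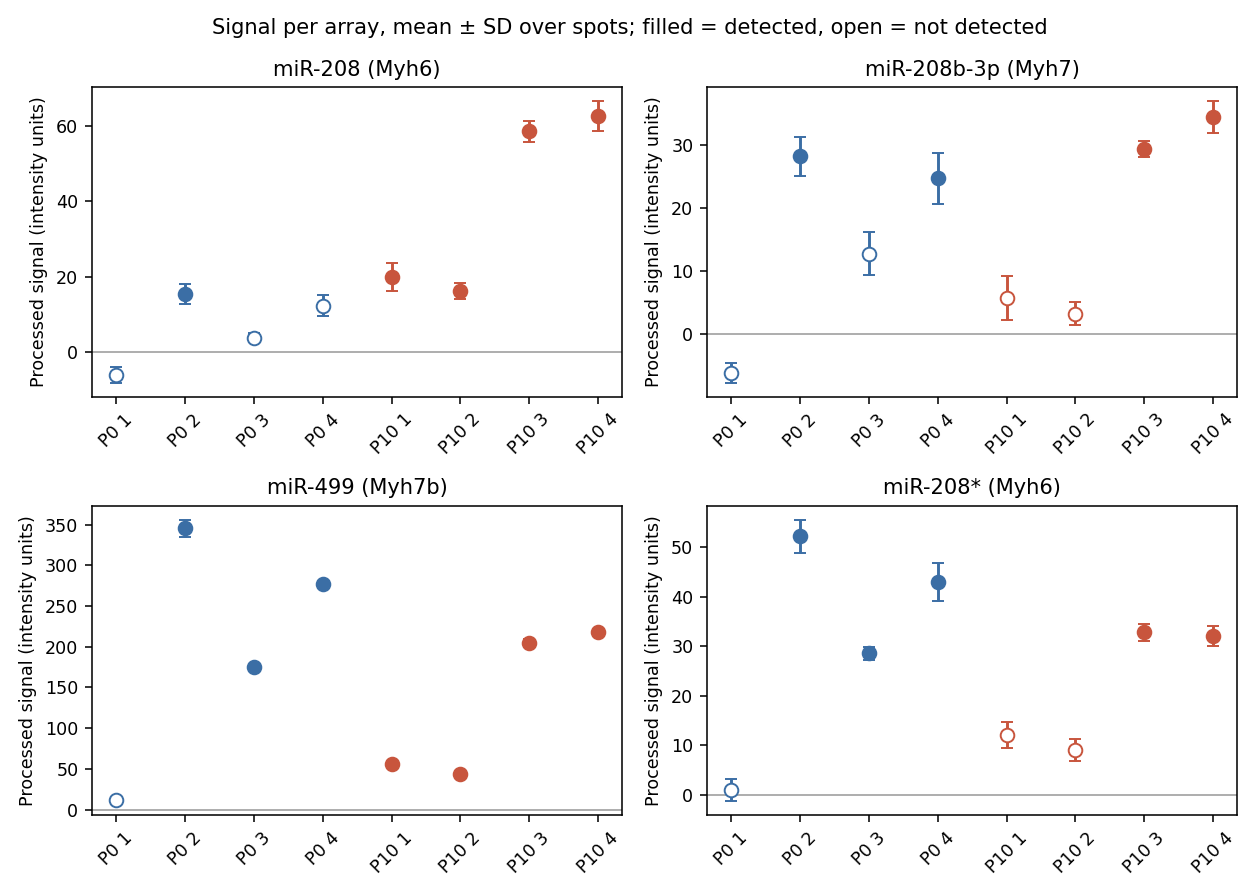
Processed signal (intensity units) of the probe standing for miR-208, miR-208b-3p, miR-499 and miR-208*, the other arm of the miR-208 hairpin, on each P0 (blue) and P10 (red) array. Points are means and whiskers SD over spots, and filled points mark detection. miR-208 was detected on 1 of 4 P0 and 4 of 4 P10 arrays, and P0 replicate 1 gave the lowest signal in each panel.

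As a level, miR-208 stood at -5.20%, 1.16%, 0.475% and 1.06% of the 75th percentile on the P0 arrays and at 3.04%, 2.80%, 4.59% and 4.93% on the P10 arrays. The ages did not overlap, and each of the P10 levels was above the floor while each of the P0 levels was below it. The floored log2 level was -5.89 on all 4 P0 arrays, and at P10 it was -4.75 ± 0.41 (SD, n = 4). The difference was 1.14 ± 0.24 (SE) on the log2 scale, 2.21-fold, with an adjusted p of 0.0279 in limma over the 157 miRNAs tested. Since the floor stands in for every P0 value, it sets the size of that fold and leaves P0 with no spread, which lowers the SE and p. miR-208 also entered the fit only through P10, the age at which it was high, and with no filter on detection the adjusted p in limma was 0.0769. As a background, limma called 7 of all 157 higher at P10, 4.46%, and 7 lower, also 4.46%. Among all tested, the ages did not overlap with P10 higher for 21 of the 157, 13.4%, and with P10 lower for 20, 12.7%.

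The call depended on single arrays. Without P0 replicate 1, 2, 3 or 4 the adjusted p in limma was 0.0529, 0.120, 0.0941 and 0.0927 in turn, and without P10 replicate 1 or 3 it was 0.0525 and 0.0564. With the near-identical P10 arrays averaged, the adjusted p was 0.149. The exact two-sided permutation test over 70 arrangements gave p = 0.0286 for miR-208, the smallest it can give with 4 arrays against 4, and 0.0857 after Benjamini-Hochberg adjustment over the 3 miRNAs. The difference stayed positive in all 26 alternative analyses, from 0.25 to 5.03.

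The other miR-208 probe on the array, of 15 bases, was dimmer. Its signal was -8.0, -1.01, -4.46 and -2.08 intensity units at P0 and 3.42, 1.46, 15.7 and 16.5 at P10. Every P10 signal was above every P0 signal, as for the brighter probe, but the probe was detected only on P10 replicates 3 and 4. In the authors' deposited table, miR-208a-3p was listed at 0.1, the value for not detected, on P0 replicates 1, 3 and 4. The same table gave total probe signals of 10.3 on P0 replicate 2 and 13.7, 11.2, 50.1 and 53.1 on the P10 arrays.

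miR-208b-3p, the beta-myosin miRNA, showed no common direction between the ages. Its brightest probe gave -6.06, 28.1, 12.7 and 24.7 intensity units on the P0 arrays and 5.71, 3.28, 29.4 and 34.3 on the P10 arrays. It was detected on 2 P0 arrays, replicates 2 and 4, and on 2 P10 arrays, replicates 3 and 4. P10 replicates 1 and 2 were low and P10 replicates 3 and 4 high, and the ages overlapped. As a level it was -5.25%, 2.12%, 1.58% and 2.13% of the 75th percentile at P0 and 0.876%, 0.566%, 2.30% and 2.70% at P10. The floored log2 difference was 0.12, with p = 0.543 in the exact permutation test, also 0.543 after adjustment. With miRNAs detected on at least 1 array let into the fit, limma gave 0.12 ± 0.19 (SE) and an adjusted p of 0.732. With 4 of its 8 levels at the floor, a change of miR-208b-3p below that level was not detectable.

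The probes of 16 and 17 bases for miR-208b-3p showed the same order of arrays. The former gave -7.38, 18.0, 4.37 and 12.4 units at P0 and 2.02, 0.288, 18.1 and 20.3 at P10. The latter gave -6.56, 15.6, 5.90 and 12.7 at P0 and 2.78, -0.284, 17.6 and 21.2 at P10. Both were low on P10 replicates 1 and 2 and on P0 replicate 1. In the authors' deposited table miR-208b-3p was detected on P0 replicates 2, 3 and 4, with total probe signals of 26.8, 5.13 and 21.7, and on P10 replicates 3 and 4, with 28.7 and 33.3.

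miR-499 was the most often detected of the 3 and did not differ between the ages past the threshold. Its brightest probe gave 12.3, 345, 175 and 277 intensity units on the P0 arrays and 55.7, 44.0, 205 and 218 on the P10 arrays. The ages overlapped: P10 replicates 1 and 2 were low, P10 replicates 3 and 4 lay within the range of P0 replicates 2 to 4, and P0 replicate 1 was the dimmest. It was detected on 3 P0 and 4 P10 arrays. On P0 replicate 1, 0 of 10 spots were well above background, although 10 of 10 were marked as positive and significant against background, and its level there was under that array's dimmest detected probe.

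As a level, miR-499 was 10.67%, 26.0%, 21.7% and 23.9% of the 75th percentile at P0 and 8.54%, 7.60%, 16.0% and 17.2% at P10. Each P10 level was below those of P0 replicates 2 to 4, and P0 replicate 1 lay between the P10 pairs. The log2 level was -2.36 ± 0.59 (SD, n = 4) at P0 and -3.11 ± 0.61 (SD, n = 4) at P10. The difference of -0.75 ± 0.39 (SE) had an adjusted p of 0.233 in limma. The exact permutation test gave p = 0.143, and 0.214 after adjustment over the 3 miRNAs. In intensity units the probe of 18 bases gave the same order of arrays. The longer probe was 2.59 to 3.16 times as bright as it on 7 arrays and 4.82 times on P0 replicate 1. As a level, the order of the shorter probe differed. P0 replicate 1, on which the shorter probe was not detected, was then the lowest array. Its level there was 2.21%, under the lowest P10 level of 2.40%, on replicate 2. In the authors' deposited table miR-499-5p was detected on all 8 arrays.

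**Figure D2:**
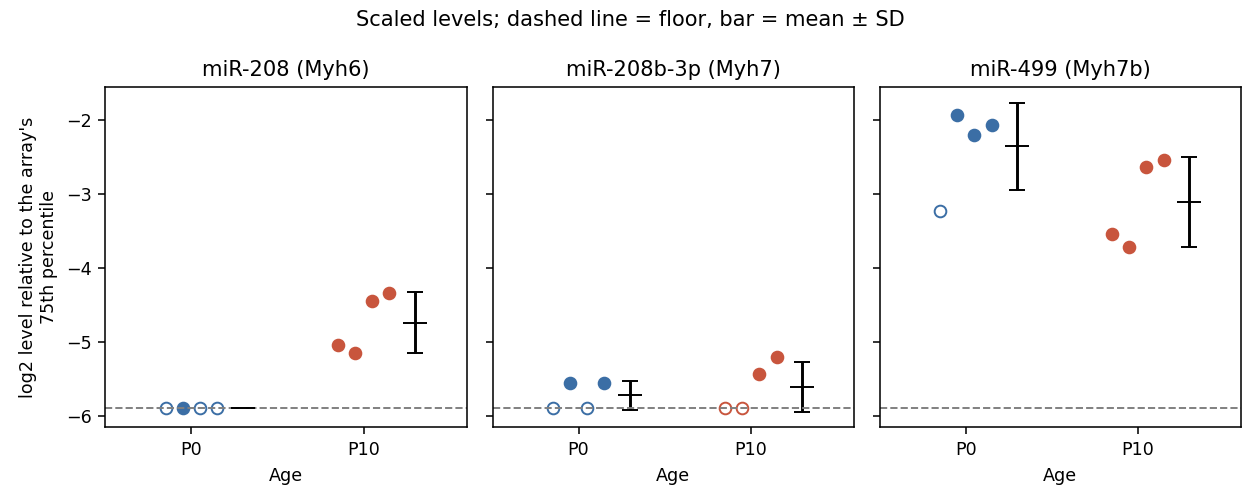
Floored log2 level relative to the array's 75th percentile for the 3 miRNAs, by age; each point is 1 array, filled where detected, bars are means and whiskers SD (n = 4 per age), and the dashed line is the floor at -5.89. All 4 P0 points of miR-208 lie on the floor and its 4 P10 points lie above it, whereas the ages overlap for miR-208b-3p and miR-499.

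A ratio of unfloored signals on the same array does not depend on the scaling between arrays, whereas a floored ratio does, because scaling sets which values meet the floor. A ratio of 2 signals on the same array shows unequal change between the ages, not which of the pair is more abundant, because probes differ in brightness.

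With all 8 arrays and the floor applied, the ratio of miR-208 to miR-208b-3p was higher at P10 by 1.03 on the log2 scale and that of miR-208 to miR-499 by 1.90, each with an adjusted p of 0.0429 in the exact permutation test. miR-208b-3p over miR-499 differed by 0.87, with p = 0.0857. With no scaling between arrays the first 2 pairs differed by 1.05 and 1.46, with an adjusted p of 0.0857 and 0.214 in the exact permutation test. miR-208 was at the floor on all 4 P0 arrays. On P0 replicates 1 and 3 miR-208b-3p was at the floor too, which fixes their ratio. On P10 replicates 1 and 2 miR-208b-3p alone was at the floor. Only on P10 replicates 3 and 4 were both above it, so the floor sets part of the difference of the first pair. Without P0 replicate 1 the adjusted p of the first pair was 0.0286 and that of the other 2 pairs also 0.0286, so the third pair then passed the threshold, with a difference of 1.30. Without any single P10 array the first 2 pairs had an adjusted p of 0.0857, and with the near-identical P10 arrays averaged 0.10, where p cannot go below 0.0667. As a background, the floored ratio of 2 tested miRNAs had no overlap between the ages for 4013 of 12246 pairs, 32.8%, so a ratio without overlap was common on these arrays.

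Without a floor, an analysis added after the data were seen, the ratios can be given array by array. The signal of miR-208 over that of miR-208b-3p was 0.549, 0.301 and 0.4998 on P0 replicates 2 to 4, and 3.47, 4.94, 1.99 and 1.83 on the P10 arrays. On P0 replicate 1 both signals were below 0 and gave no ratio. The highest P0 ratio was under the lowest P10 ratio. For unfloored ratios, here and below, the share of all pairs without overlap was not counted, so how common such a separation is was not shown. The unfloored log2 difference was 2.69, or 6.46-fold, and an exact permutation test over 35 arrangements gave p = 0.0286, the smallest it can give, and 0.0429 after adjustment over 3 pairs. These ratios rest on signals near background, since miR-208 was detected on only 1 of the P0 arrays and miR-208b-3p was not detected on P10 replicates 1 and 2. On P10 replicates 3 and 4, where both were detected, the ratio was 1.99 and 1.83, and on P0 replicate 2, the P0 array on which both were detected, it was 0.549.

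The other miR-208b-3p probes were each detected on 1 P0 and 2 P10 arrays. Against the probe of 16 bases it was 0.859 to 0.993 on 3 P0 arrays and 3.09 to 56.3 on 4 P10 arrays. Against that of 17 bases it was 0.648 to 0.992 on 3 P0 arrays and 2.96 to 7.14 on 3 P10 arrays, the signal of P10 replicate 2 being below 0. The ages did not overlap with any of the 3 probes, but the highest ratios have a denominator near 0 and no interpretable size. With the mean of all probes of each miRNA, the floored difference was 0.53, with an adjusted p of 0.0857 in the exact permutation test.

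Against miR-499, miR-208 stood at 0.0447, 0.0219 and 0.0445 on P0 replicates 2 to 4 and at 0.356, 0.368, 0.286 and 0.287 on the P10 arrays. The P10 ratios lay close together and all above the P0 ratios. The unfloored log2 difference was 3.20, or 9.16-fold, against 1.90 with the floor and 1.00 with a doubled floor, and its size rests on miR-208 signals that were not well above background on P0 replicates 3 and 4. It had p = 0.0286 in the exact permutation test and 0.0429 after adjustment. miR-208b-3p over miR-499 was 0.0814, 0.0727 and 0.0891 on the same P0 arrays and 0.103, 0.0745, 0.144 and 0.157 at P10. Here the ages overlapped, and the log2 difference of 0.50 had p = 0.171 in the exact permutation test.

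**Figure D3:**
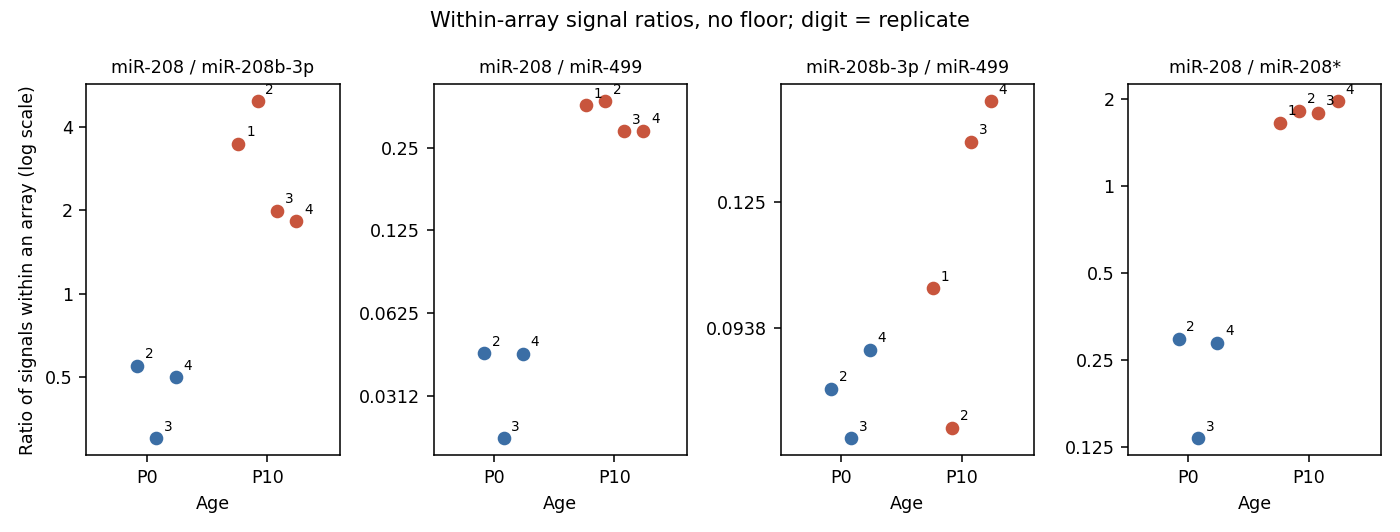
Ratio of 2 processed signals on the same array (log axis), without a floor, by age for 4 pairs. Digits are replicate numbers. P0 replicate 1 is missing because its miR-208 and miR-208b-3p signals were below 0. The P10 ratios of miR-208 to miR-208b-3p (1.83 to 4.94), to miR-499 (0.286 to 0.368) and to miR-208* (1.65 to 1.96) lie above the P0 ratios, and those of miR-208b-3p to miR-499 overlap.

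The other arm of each hairpin was also on the array. A hairpin gives a duplex of both arms, of which usually 1 is kept. In the Mir208a hairpin from RefSeq (GRCr8), with the 2 mature arms in capitals, miR-208* (now miR-208a-5p) is the first and miR-208a-3p the last.
Mir208a: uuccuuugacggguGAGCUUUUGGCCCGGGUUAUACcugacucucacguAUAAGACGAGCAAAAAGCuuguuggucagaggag
miR-208* gave 0.916, 52.1, 28.5 and 43.0 intensity units on the P0 arrays and 12.01, 8.94, 32.8 and 32.0 on the P10 arrays. It was detected on P0 replicates 2 to 4 and on P10 replicates 3 and 4. Its level was 0.793%, 3.93%, 3.54% and 3.70% of the 75th percentile at P0 and 1.84%, 1.54%, 2.57% and 2.52% at P10. Each P10 level was below those of P0 replicates 2 to 4 and above that of P0 replicate 1, so the ages overlapped. Relative to the muscle miRNAs, its log2 value was -7.52 on P0 replicate 1, where it was not detected, and -5.79 to -5.78 on P0 replicates 2 to 4. At P10 it was -6.64 to -6.00, below each of P0 replicates 2 to 4. The difference in means of -0.10 includes P0 replicate 1 and depends on it. miR-208* missed the filter and was not tested.

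The ratio of miR-208 to miR-208* on the same array was 0.296, 0.134 and 0.287 on P0 replicates 2 to 4 and 1.65, 1.81, 1.79 and 1.96 on the P10 arrays. The P10 values lay within a narrow range although P10 replicates 1 and 2 were dimmer than 3 and 4. The unfloored log2 difference was 3.0, or 8.0-fold, and 1.67 with the floor, both given without a test because the pair was chosen after its values were seen. Their size rests on signals below the detection rule, those of miR-208 on P0 replicates 3 and 4 and those of miR-208* on P10 replicates 1 and 2. The other arms of Mir208b and Mir499a, miR-208b-5p and miR-499*, were detected on 0 of 8 arrays, and on these probes the signals were -5.06 to 2.79 intensity units.

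miR-1 and the miR-133 miRNAs are made in heart and skeletal muscle and served as a check of the cell type. miR-1, miR-133a and miR-133b were detected on all 8 arrays, and miR-206, a miRNA of skeletal muscle, on 1 P0 and 4 P10 arrays. Of these 4, 0 passed the test in limma in either direction, beside 4.46% of all tested in each, and 1, miR-206, had an unadjusted p under 0.05. Their differences were -0.18 ± 0.30, -0.50 ± 0.38, -0.02 ± 0.34 and 1.05 ± 0.45 (SE) on the log2 scale, with a median of -0.10 against 0.03 over all 157 tested. With no scaling between arrays the differences of miR-1, miR-133a and miR-133b turned to 0.34, 0.02 and 0.50, where the median of all tested was 0.35. When the arrays were scaled to the muscle probes themselves, they were 0.00, -0.31 and 0.17. Those values are held near 0 in part because these probes are the divisor.

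Relative to the 5 probes of miR-1, miR-133a and miR-133b on the same array, without a floor, miR-208 was at -7.94 ± 0.65 (SD, n = 3) on the log2 scale at P0 and at -5.47 ± 0.25 (SD, n = 4) at P10. miR-208b-3p was at -6.74 ± 0.19 (SD, n = 3) and -6.96 ± 0.45 (SD, n = 4). miR-499 was at -3.77, -3.06, -3.17 and -3.09 on the P0 arrays and at -3.78, -3.80, -3.90 and -3.87 on the P10 arrays. On this scale the P10 values of miR-499 spanned little and all lay under the P0 values. P0 replicate 1, on which miR-499 was not detected, stood at -3.77 against a highest P10 value of -3.78. The lack of overlap therefore rests on that undetected value. How many of all tested miRNAs had no overlap on this scale was not counted. Scaled in this way and floored, the differences were 1.41 for miR-208 and -0.57 for miR-499, each with an adjusted p of 0.0429 in the exact permutation test over the 3 miRNAs. The p of miR-208 before adjustment was 0.0286, as with the other scaling. This scaling was chosen after the data were seen. In limma over all tested miRNAs with this scaling, miR-499 did not pass.

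**Figure D4:**
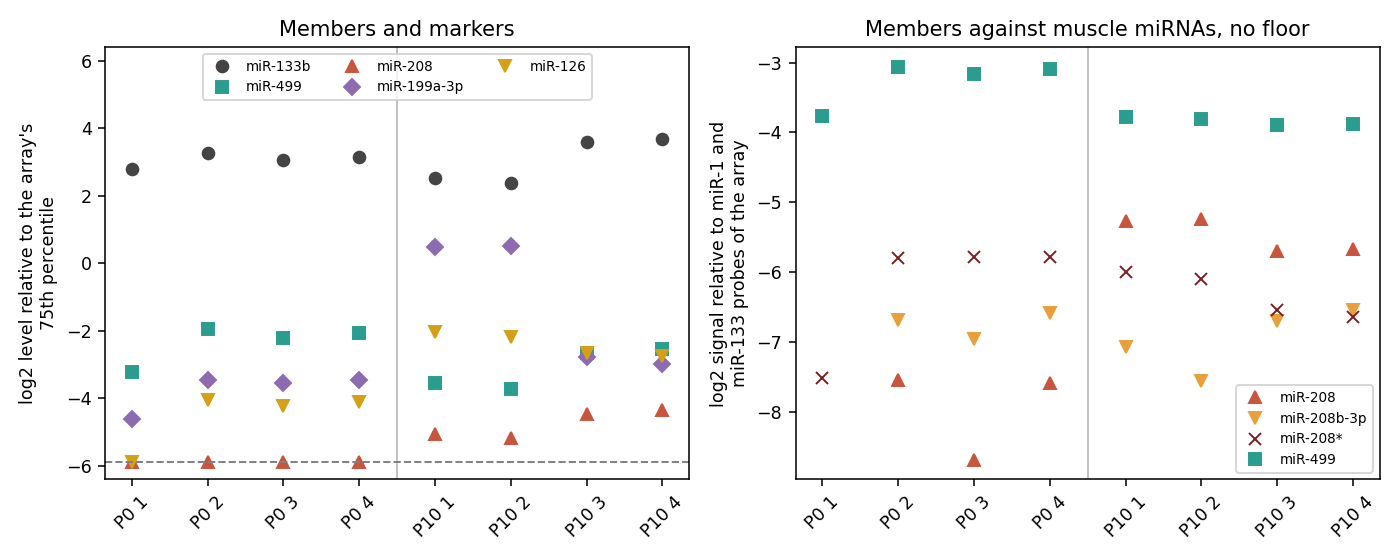
Left, floored log2 level relative to the array's 75th percentile of miR-133b, miR-208, miR-499, the fibroblast marker miR-199a-3p and the endothelial marker miR-126 on each array, with the floor dashed at -5.89. Right, log2 signal of the 3 miRNAs and miR-208* relative to the miR-1 and miR-133 probes of the same array, without a floor, where miR-208 averages -7.94 at P0 and -5.47 at P10 and values below 0 intensity units are left out.

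Markers of other cells were measured on the same arrays. The 3 fibroblast miRNAs miR-199a-3p, miR-199a-5p and miR-214 summed to 0.116 to 0.180 times the 75th percentile on the P0 arrays and to 2.62, 2.69, 0.264 and 0.244 on P10 replicates 1 to 4, and 0 of the 3 passed limma, with adjusted p of 0.0900, 0.118 and 0.138, although 3 of the 3 had an unadjusted p under 0.05. P10 replicates 1 and 2, in which miR-208b-3p and miR-499 were low, were the arrays with the high fibroblast signal. The summed cardiomyocyte and muscle list, which holds the 3 miRNAs themselves, was 11.7 to 17.1 at P0 and 10.1, 9.26, 19.9 and 20.7 at P10. miR-126, an endothelial miRNA, rose by 2.17 ± 0.43 (SE), with an adjusted p of 0.0211 in limma. It was detected on 3 P0 and 4 P10 arrays, and on P0 replicate 1 it was at the floor. The other miRNA of the endothelial list, miR-126*, was detected on 0 arrays and not tested. The endothelial sum was 0.00724 to 0.0620 at P0 and 0.151 to 0.251 at P10.

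Of 5 leukocyte miRNAs on the array 4 were detected, and the sum was 0.0521 to 0.194 at P0 and 0.0755 to 0.219 at P10. Of the 2 leukocyte miRNAs tested, miR-146a differed by 1.85 ± 0.47 (SE), with an adjusted p of 0.0427 in limma. It was at the floor on all 4 P0 arrays and was detected on 1 P0 and 4 P10 arrays. The floor thus sets the size of that difference and leaves P0 no spread, and miR-146a entered the fit only through P10. miR-223 differed by -0.24 ± 0.69 (SE), with an adjusted p of 0.837 in limma. The leukocyte sums overlapped between the ages. Of 2 smooth muscle miRNAs, miR-143 fell by 0.92 ± 0.23 (SE) on the log2 scale, with an adjusted p of 0.0427 in limma. The other, miR-145, differed by -0.69 ± 0.37 (SE), with an adjusted p of 0.248 in limma. The smooth muscle sum was 1.37 to 2.17 at P0 and 0.852 to 1.17 at P10. Of 2 erythroid miRNAs, miR-451 was detected on 3 P0 and 2 P10 arrays and miR-144 on 0. The erythroid sum was 0.00186 to 0.0336 at P0 and 0.00367 to 0.0180 at P10. miR-9 and miR-124 of neurons, miR-122 of liver and the 4 epithelial miRNAs were detected on 0 arrays. The part of other cells in the differences of the 3 miRNAs was not tested. On P10 replicates 3 and 4, with the lower fibroblast signal, the level of miR-208 was 4.59% and 4.93%, above that of replicates 1 and 2, and that of miR-499 was 16.0% and 17.2%, below P0 replicates 2 to 4. Without P10 replicates 1 and 2 the difference of miR-208 was 1.74 and that of miR-499 was -0.23. Without P10 replicates 3 and 4 they were 0.63 and -1.29. In the exact permutation test miR-208 had p = 0.0667 each time, the smallest possible with 2 P10 arrays. Its adjusted p in that test was 0.20 and 0.10. In limma its adjusted p was 0.000992 and 0.00152, and that of miR-499 was 0.752 and 0.0510. These limma values cannot weigh the difference of miR-208. The floor leaves its P0 levels no spread, and the P10 spread is that of 2 near-identical arrays.

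The tested miRNAs whose floored log2 level followed each of the 3 most closely over the 8 arrays differed between them. This is a description over arrays that share their scaling and 2 ages. For miR-208 the closest were miR-497 (r = 0.766), miR-126 (0.736), miR-195 (0.730), miR-101a (0.701) and miR-181c (0.655), and the most opposed were miR-99b (-0.983) and miR-125a-5p (-0.975). For miR-208b-3p they were miR-133b (0.893), miR-133a* (0.775), miR-30a (0.759), miR-1 (0.757) and miR-133a (0.682), so 4 of its 5 closest were of the miR-1 and miR-133 hairpins, and the most opposed was miR-295 (-0.927). For miR-499 they were miR-145 (0.991), miR-26a (0.975), miR-30e (0.970), miR-130a (0.964) and miR-30b-5p (0.964), and the most opposed was miR-465 (-0.970). The 3 lists of 5 closest had no miRNA in common.

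**Figure D5:**
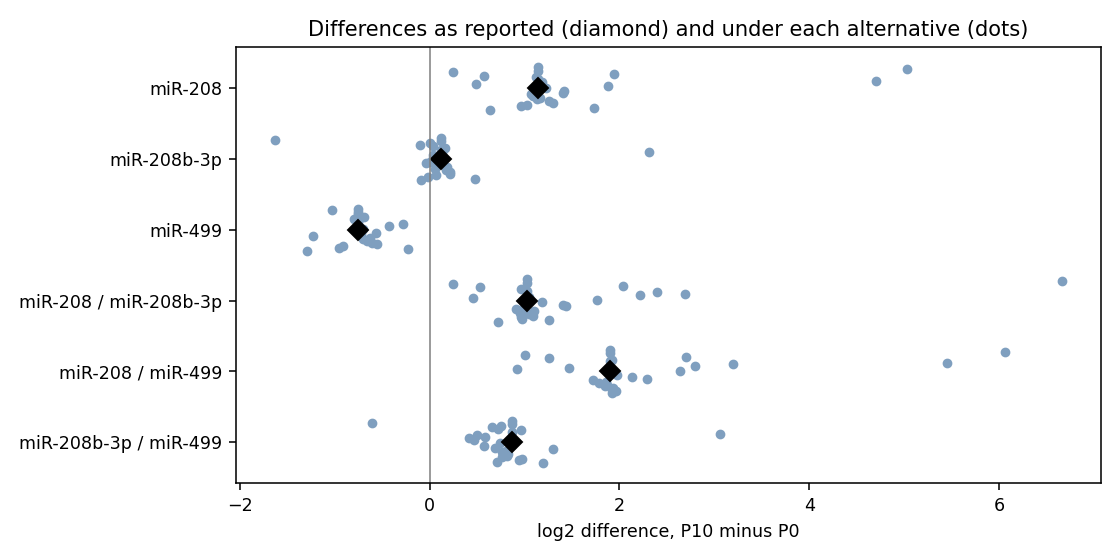
Difference P10 minus P0 (log2 scale) of each of the 3 miRNAs and of each within-array ratio as reported (diamond) and under each alternative analysis (dots). Values for miR-208 run from 0.25 to 5.03 and stay above 0, those for miR-499 from -1.29 to -0.23 stay below 0, and those for miR-208b-3p lie on both sides of 0.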

How the data were processed

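Total RNA of P0 and P10 cardiomyocytes was labelled with Cy3 and hybridised to 8 Agilent rat miRNA arrays, 1 per sample, with groups and replicate numbers taken from the sample labels. The authors deposited scanner files of spot intensities, written by Agilent Feature Extraction 10.7.1.1 per the submitters' processing notes. Per the file headers, the processed intensity has the background of the same array subtracted and is not scaled between arrays. The authors also deposited a table of log2 normalized values with raw total probe signals, made by a normalization that the sources used here do not name; 670 of 677 miRNAs were matched to it by accession, and it served as an alternative and where named. The deposited value table of the series repeats the linear intensities of the scanner files with a largest difference of 0.493%, uncentred and in the same direction.

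Spots with an outlier flag were left out, and the remaining spots of each of the 1644 probes were averaged. Scaling divided the signals by the array's own 75th percentile, taken across those 111 probes that every array detected. A floor at 0.0169 of that percentile (log2 -5.89), the median over arrays of the dimmest detected level, was applied before log2. Each miRNA was read from its brightest probe by mean level. The 157 miRNAs that each of the 4 arrays of an age detected, at either age, were fitted with limma 3.58.1 in R 4.3.3 (lmFit, eBayes, Benjamini-Hochberg over all 157, threshold 0.05). The 3 myosin-hosted miRNAs and their 3 ratios were also compared by exact two-sided permutation tests, adjusted over 3. The code was tested on simulated data. The number of arrays, the signal over background and the likeness of the P10 pairs limit the precision. Named were the 3 miRNAs, the other arms of their hairpins, the muscle and cell type lists, and for each of the 3 up to 5 tested miRNAs most and least alike by Pearson's r. The miRNAs and lists were chosen with earlier results of these data known. Alternatives covered scaling, background, floor, filter, probe choice, outlier spots, the replicate block, the deposited log2 table and each array left out; 6 were added after the data were seen.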

Additional observations from a re-analysis of the deposited data

Results flagged for a closer look

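Every value that stood apart from the other 3 arrays of its age, with a gap above the critical value of Dixon's test, came from P0 replicate 1, the dimmest array, where the values of several probes share 1 small divisor. Chance marks about 1 in 20 such groups, and these values are not independent. As a percentage of the 75th percentile, the miR-208 probes stood at -6.92% and -5.20% there, against -0.554% to -0.0764% and 0.475% to 1.16% on the other P0 arrays. The miR-208b-3p probes stood at -6.39%, -5.68% and -5.25%, against 0.542% to 1.35%, 0.732% to 1.17% and 1.58% to 2.13%. The miR-208* probes stood at -0.389% and 0.793%, against 2.28% to 2.63% and 3.54% to 3.93%. The undetected arms gave -3.81% and -1.51% for miR-208b-5p and -3.37% and -3.83% for miR-499*. The longer miR-499 probe was 4.82 times as bright as the shorter one on that array, against 2.59 to 2.70 times. Relative to the muscle miRNAs, miR-499 was at -3.77 on the log2 scale against -3.17 to -3.06, and miR-208* at -7.52 against -5.79 to -5.78. The floored log2 ratio of miR-208 to miR-208* was 0.00, both being at the floor, against -1.22 to -1.07. No test of the cause was made, and the comparisons are given without this array above and below.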

How the results depend on the processing

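The difference of miR-208 was positive in 26 of 26 alternatives (0.25 to 5.03) and past the threshold in limma in 9. Outside the arrays left out in turn, it was not past it with no scaling (1.19, adjusted p 0.295), quantile scaling (1.23, 0.0881), normexp background (0.49, 0.105), a doubled floor (0.25, 0.313), no floor (4.70, 0.271), no filter (1.14, 0.0769), the mean of probes (0.57, 0.102), outlier spots kept (1.88, 0.0576), the deposited log2 table (5.03, 0.115), the replicate block (1.14, 0.0951) and the averaged P10 pairs (1.14, 0.149). Leaving out each array in turn gave 0.97 to 1.30. Its adjusted permutation p passed only when scaled to the muscle miRNAs (1.41), where its own p was still 0.0286 and the adjusted one fell because that of miR-499 did. miR-499 was negative in 26 of 26 (-1.29 to -0.23; -1.22 to -0.55 with an array left out), and passed only in the permutation test scaled to the muscle miRNAs (-0.57). miR-208b-3p took either sign: -0.096 with a halved floor, -0.037 with summed probes, -1.63 in the deposited log2 table, -0.092 without P10 replicates 3 and 4, -0.011 without P10 replicate 4, and 0.00 with a doubled floor; with an array left out it ran from -0.011 to 0.21.

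The ratios of miR-208 to miR-208b-3p and to miR-499 were positive in 28 of 28 alternatives (0.25 to 6.66 and 0.92 to 6.06), each past the threshold in 17. They were not past it with no scaling (1.05 and 1.46), a doubled floor (0.25 and 1.00), the mean of probes (0.53 and 1.26), the averaged P10 pairs (1.03 and 1.90), without P10 replicates 1 and 2 (1.25 and 1.97) or 3 and 4 (0.72 and 1.92), and, adjusted p 0.0857, without any 1 P10 array; arrays left out in turn gave 0.91 to 1.103 and 1.72 to 2.29. miR-208b-3p over miR-499 passed with a halved floor (0.66), summed probes (0.69) and muscle scaling (0.57), reversed in the deposited log2 table (-0.60), and ran from 0.76 to 1.30 with an array left out. Where the P10 arrays number 2, the smallest p is 0.0667 by construction. With a doubled floor the smallest permutation p for miR-208 over miR-208b-3p was 0.429, so that test could not pass. The same minimum held there for the difference of miR-208. With no scaling, the mean of probes or 1 P10 array left out, the unadjusted permutation p of miR-208 over miR-208b-3p stayed at 0.0286. That is the smallest it can give. Its adjusted p rose there because the p of miR-208 over miR-499 rose, to 0.143, 0.0857 and 0.0571 in turn. Elsewhere the cause was not tested.

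With the replicate number as a block, p for the ratios was 0.125, the smallest it can give (1.03 and 1.90), and limma called 3 miRNAs higher and 1 lower. Same-numbered arrays of both ages lay in the same slide column. Their deviations correlated at 0.159, -0.149, 0.0269 and 0.131. With 4 arrays per age, these values cannot show whether same-numbered arrays share more than number and column. The counts of 7 higher and 7 lower became 25 and 46 without P0 replicate 1, 50 and 26 without P10 replicates 3 and 4, and 2 to 11 and 2 to 7 without any other array. They were 10 and 0 with no scaling (0 lower at unadjusted p under 0.05), 0 and 0 with the P10 pairs averaged (15 and 11 unadjusted), 1 and 0 in the deposited log2 table (23 and 10), 1 and 2 with muscle scaling, 4 and 4 with the mean of probes, 9 and 3 with summed probes, 1 and 4 with no floor, 5 and 15 with a doubled floor, 6 and 14 with miRNAs detected on at least 1 array, and 1 and 3 with no filter. Median scaling and quantile scaling each gave 9 and 7. Scaling to the 75th percentile over all probes was not run, since that percentile was below 0 on 1 array. Signal over background limits miR-208 at P0 and miR-208b-3p at both ages.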
